A study of Mus musculus with 2 samples.

Results

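Simple epithelial keratins are the intermediate filament proteins of single-layered and glandular epithelia. They were followed here through 8 genes in incisors with and without *Sox21*: *Krt7*, *Krt8*, *Krt18*, *Krt19*, *Krt20*, *Krt23*, *Krt80* and *Krt222*, out of 21244 genes with a probe on the array. The genes were chosen by name, and every non-control probe that carries one of these names was taken, 10 probes in all. Total RNA of the incisor at postnatal day 0, as the labels give the age, was measured on Agilent one-colour arrays, with 1 wild-type and 1 *Sox21* KO array. C57BL/6J mice served as wild-type, and *Sox21*, which encodes a transcription factor of the SOX family, is knocked out in the *Sox21* KO mice. The genetic background of the *Sox21* KO mice and the number of animals behind each RNA are not given in the sources used here, and the methods of the study state another postnatal day than the labels. The series text speaks both of incisor ameloblasts and of whole tooth germ, so that the samples may hold epithelium and mesenchyme. In bulk RNA of this kind, fewer cells of a type and less RNA per cell cannot be told apart.

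Keratins form filaments only as pairs of a type I and a type II protein. *Krt8* (type II) and *Krt18* (type I) encode the founding pair, the first keratins of the embryo and the main ones of liver and gut. *Krt7* (type II) and *Krt19* (type I, the keratin without a tail domain) accompany them in ducts and glands, *Krt20* (type I) is known from intestine, bladder and Merkel cells, and stratified epithelia use *Krt5* with *Krt14* instead. *Krt23* (type I) and *Krt80* (type II) are less studied, and *Krt222* encodes a keratin-related protein. The study places *Krt23* with *Krt1*, *Krt10* and *Krt15* among the epidermal keratins of hair follicle cells. It also reports *Krt23* as higher in wild-type skin than in tooth, and among the genes raised in *Sox21* KO. The 3 type II members lie in the keratin cluster of chromosome 15, with *Krt18* at its end beside *Krt8*. The other 4 members with type I sequence lie in the cluster of chromosome 11.

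The probes themselves are shown first, since each value below is the brightness of 1 spot of 60 bases. The probes of *Krt7* and *Krt19* and the dimmer probe of *Krt8*, each with a forward reading frame open from end to end, are given whole, and 30 bases are given of the *Krt18*, *Krt23* and *Krt222* probes. Capitals mark a dinucleotide repeat.
Krt18: ggatggcagagtggtgtccgagactaatga
Krt23: tccgcgctaatgggtgagtctcgacggaaa
Krt19: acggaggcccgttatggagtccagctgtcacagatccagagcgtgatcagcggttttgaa
Krt7: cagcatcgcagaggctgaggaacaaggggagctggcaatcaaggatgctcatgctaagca
Krt8: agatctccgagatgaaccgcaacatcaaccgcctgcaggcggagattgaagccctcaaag
Krt222: gtACACACACACACACACACACACccggac
Krt222, second probe: agtaaatatgctttagccacaaggaactta
In mm9, the build of the array design, they lie on the plus strand at chr15:101862341-101862400 for *Krt18* and chr15:101253718-101253777 for *Krt7*, and on the minus strand at chr11:99339393-99339452 for *Krt23*, chr11:100002392-100002451 for *Krt19*, chr15:101828827-101828886 for *Krt8*, and chr11:99095480-99095539 and chr11:99094648-99094707 for *Krt222*. The brighter *Krt8* probe lies at chr15:101827138-101827197, the *Krt80* probe at chr15:101180014-101180073 and the *Krt20* probe at chr11:99289776-99289835, all on the minus strand. No run of 15 bases is shared between the probes of *Krt7*, *Krt18*, *Krt19*, *Krt20* or *Krt23*, or the shown *Krt8* probe, and a probe of another gene on the array. The *Krt222* probe with the repeat shares such a run with 126 probes of other genes, the longest run being 24 bases.

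Signals are given as the processed signal over the 75th percentile of the array, and a probe was taken as measured where the scanner software called it well above background on both arrays. Of the 8 genes, 7 were measured, by 8 of the 10 probes. Past 2-fold, the *Sox21* KO signal was the higher one for *Krt23*, 1 of 7 measured members, against 0.739% of the 13796 measured genes, and 0 members were at least 2-fold lower, against 0.667%. At 1.5-fold, 3 members were higher, *Krt23*, *Krt18* and *Krt19*, against 3.2% of all measured genes, and 0 were lower, against 2.99%. In all, 5 of 7 measured members had higher and 2 had lower signals in *Sox21* KO, where 52.4% of all measured genes were higher. Their median log2 ratio was 0.54, from 0.32 to 0.70 over the other settings, beside 0.01 for all measured genes. With 1 array per genotype there are no biological replicates, so that no difference was tested and no spread between animals is known. The errors given are those of the scanner software, which come to at most 11.7% of the signal for the measured members, and 283 measured probes with several spots had a median SD of 0.085 between the log2 ratios of their spots.

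*Krt23* had a normalized signal of 1.27 ± 0.128 (scanner error) in wild-type and of 3.88 ± 0.388 in *Sox21* KO. This was the farthest shift of the 7 measured members, with a log2 ratio of 1.61 ± 0.205, or 3.05-fold, and the scanner errors of the arrays did not overlap. Its log2 ratio ranked 22nd from the highest among the 13796 measured genes and 3rd among the 32 measured keratins of the members and of both keratin lists below. It stayed between 1.42 and 1.68 under every other setting that was run.

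*Krt18*, the type I gene of the founding pair, had a normalized signal of 3.63 ± 0.363 in wild-type and of 6.89 ± 0.689 in *Sox21* KO. Its log2 ratio was 0.92 ± 0.204, or 1.90-fold, just short of 2-fold. *Krt8*, its type II partner, was read by 2 probes. The brighter probe went from 2.63 ± 0.264 in wild-type to 3.14 ± 0.314 in *Sox21* KO, with a log2 ratio of 0.25 ± 0.204. The dimmer probe went from 0.769 ± 0.0796 to 0.971 ± 0.0987, with a log2 ratio of 0.34 ± 0.209. The *Krt8* probes thus differed from each other by less than the error of that difference, 0.293 on the log2 scale. The log2 ratio of *Krt18* exceeded that of the brighter *Krt8* probe by 0.67 ± 0.289 and that of the other by 0.59 ± 0.292, which is 2.32 and 2.01 times the scanner error.

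*Krt19*, which is found with *Krt8* in ducts, had a normalized signal of 0.343 ± 0.0389 in wild-type and of 0.625 ± 0.0647 in *Sox21* KO. Its log2 ratio of 0.87 ± 0.222 lay within 0.06 of that of *Krt18*, with an error of that difference of 0.301. *Krt7*, the type II keratin of ducts and urothelium, went from 0.356 ± 0.0416 to 0.517 ± 0.0551, a log2 ratio of 0.54 ± 0.228. These 2 genes gave the dimmest measured spots, 4.31 and 4.48 times the lowest well-above-background signal of the wild-type array. On the raw signal, without the software's correction, the log2 ratio was 0.64 for *Krt19* and 0.35 for *Krt7*, and with another background correction (normexp) it was 0.54 and 0.32.

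*Krt80*, a type II keratin of differentiating epithelial cells, had a normalized signal of 2.32 ± 0.233 in wild-type and of 2.31 ± 0.232 in *Sox21* KO. The arrays overlapped within the scanner error, with a log2 ratio of -0.01 ± 0.205. *Krt20* did not reach the software's limit of well above background in wild-type or in *Sox21* KO. Its processed signal was 5.62 in wild-type and 4.96 in *Sox21* KO, where the software had set a surrogate value, and 65 and 95 of the 308 negative control spots were as bright or brighter. No ratio was therefore taken for *Krt20*.

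**Figure D1:**
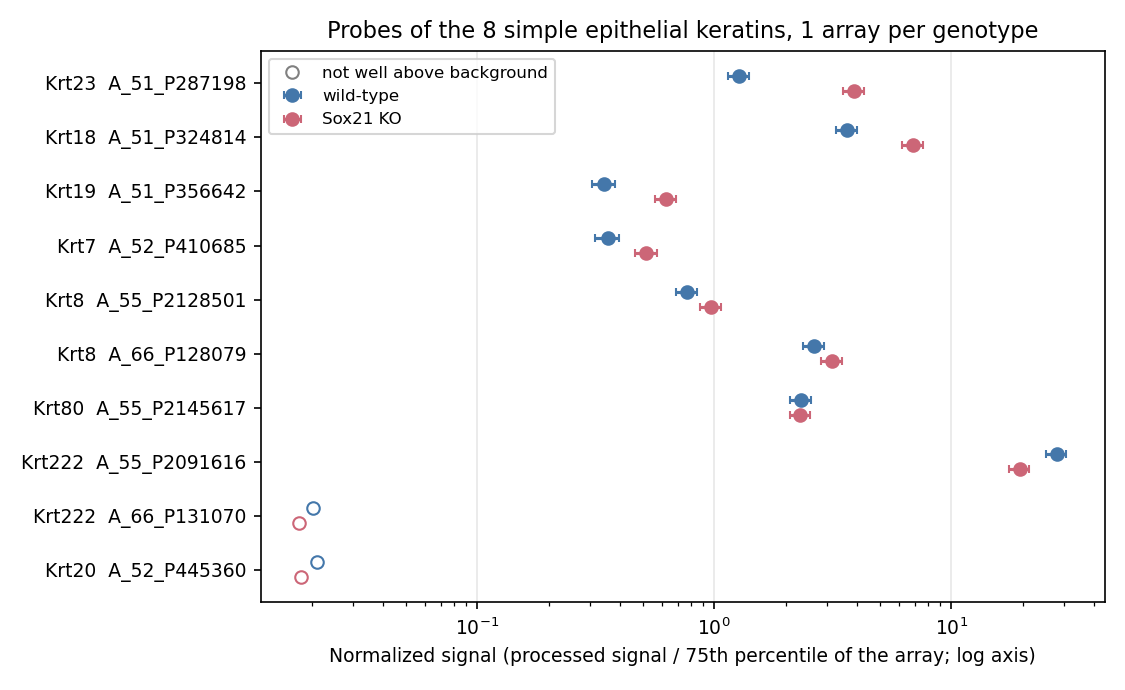
Normalized signal (log axis) of every probe of the 8 genes on the wild-type array (blue) and the *Sox21* KO array (red), with the scanner error as bars and open circles for spots not well above background. *Krt23* shows the widest gap, from 1.27 to 3.88, *Krt80* shows none beyond the error, and the 2 *Krt222* probes lie far apart.

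**Figure D2:**
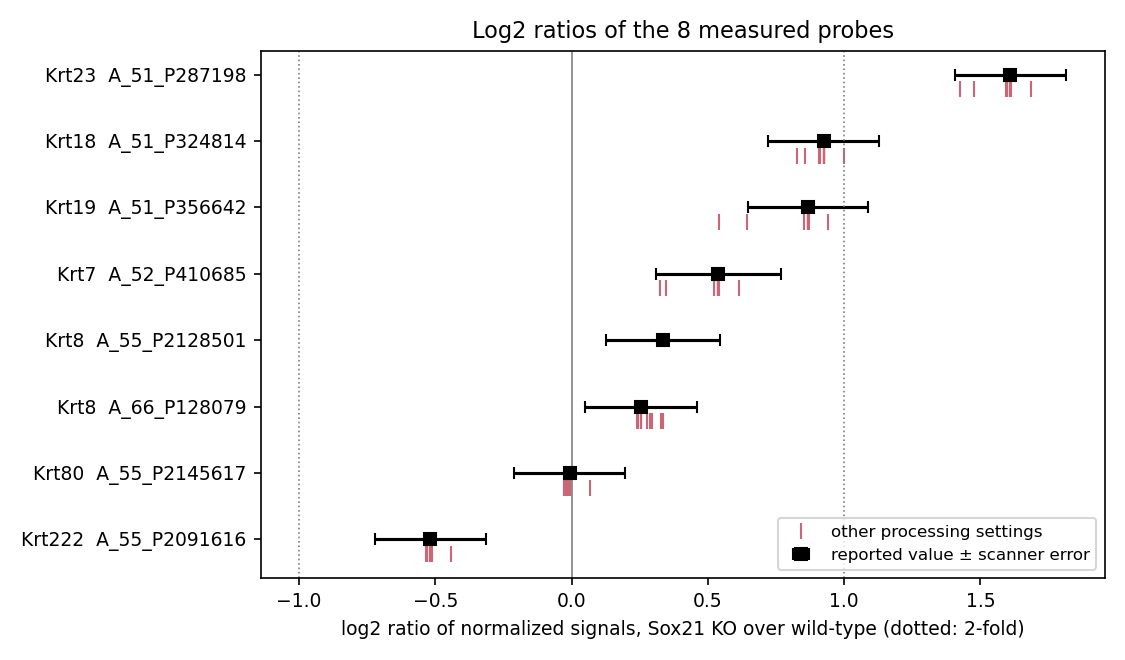
Log2 ratio of *Sox21* KO over wild-type for the 8 measured probes, with the scanner error as bars and, as red ticks under the probe that stands for its gene, the values under other processing settings. *Krt23* alone lies past 2-fold (dotted lines), and *Krt19* and *Krt7* move most between settings.

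*Krt222* was the one member whose signal was lower in *Sox21* KO by more than the scanner error, and its 2 probes did not give the same picture. The first probe went from 27.8 ± 2.78 in wild-type to 19.4 ± 1.94 in *Sox21* KO, with a log2 ratio of -0.52 ± 0.204, whereas the second, further along the same transcript, did not reach well above background in wild-type or *Sox21* KO, at processed signals of 5.45 and 4.88. The first probe holds a run of 11 AC units, shown in capitals above. The array carries 31 other probes, each under another name, with at least 8 AC units in a row, a limit chosen after the *Krt222* values were seen. All 31 were well above background on both arrays, as were 46.5% of the 55576 probes with no such repeat of AC or GT. All 31 were also lower in *Sox21* KO, with log2 ratios from -0.76 to -0.24 and a median of -0.46, so that the *Krt222* value lay among them. The 71 probes with at least 8 GT units, the complementary repeat, were well above background on both arrays as well, and 70 of them were higher in *Sox21* KO, with a median log2 ratio of 0.20. Among probes with no such repeat the median was -0.0010, the 5th percentile -0.53 and the 95th percentile 0.48. Values over the members are for this reason also given without *Krt222*: 5 of the 6 other measured members were higher in *Sox21* KO, and their median log2 ratio was 0.70.

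**Figure D3:**
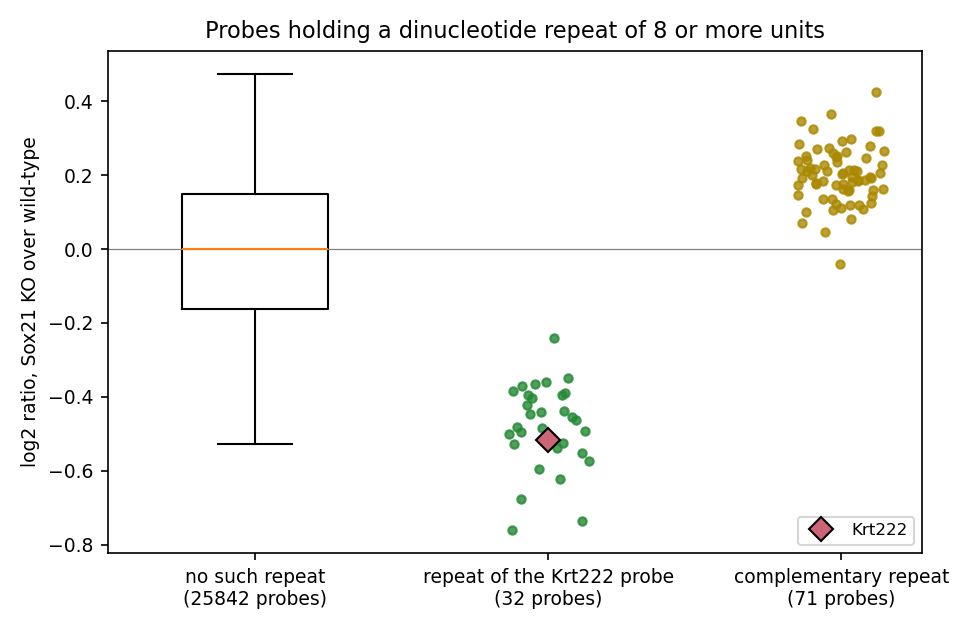
Log2 ratio of *Sox21* KO over wild-type for measured probes without a dinucleotide repeat (box, quartiles, with whiskers at the 5th and 95th percentiles) and for single probes with the repeat found in the *Krt222* probe (green) or its complement (ochre). All 32 probes with the former repeat, *Krt222* (diamond) among them, lie below 0, and 70 of the 71 with the latter lie above 0.

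**Figure D4:**
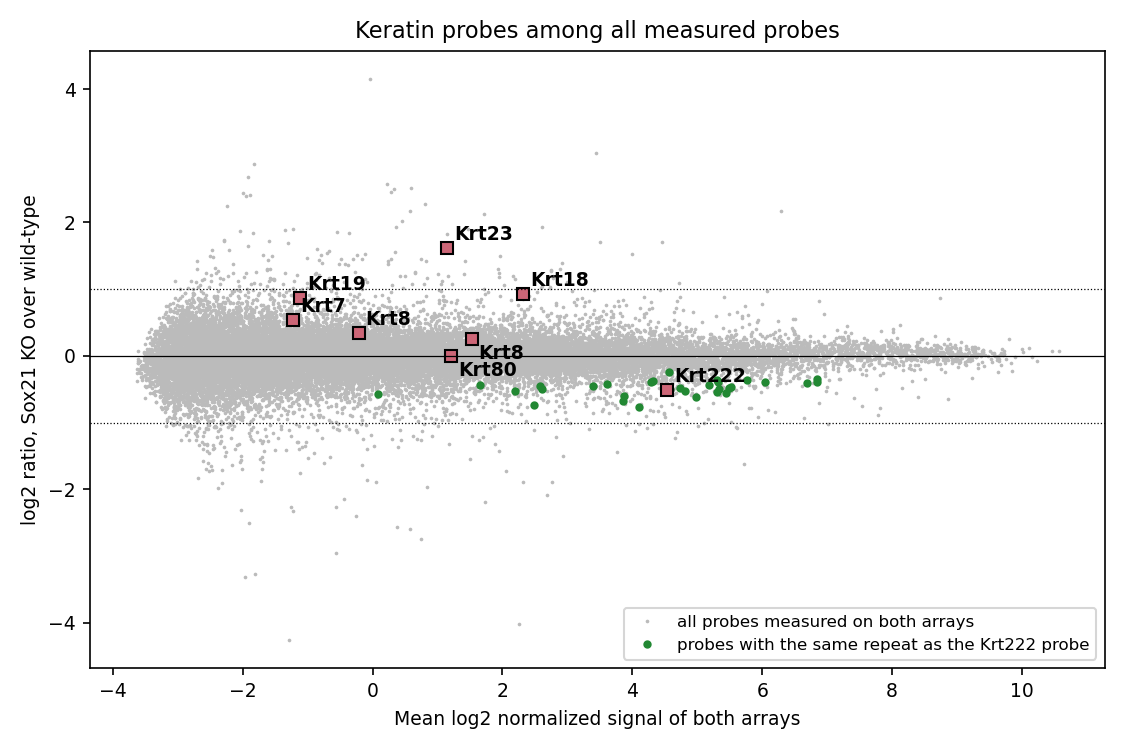
Log2 ratio against the mean log2 normalized signal for all 25945 measured probes (grey), the probes with the repeat of the *Krt222* probe (green) and the probes of the members (red squares). *Krt23* stands above the dense band, *Krt18* and *Krt19* lie at its upper edge and below 2-fold (dotted), and *Krt222* lies within the row of repeat probes.

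The promoters of the members were searched for shared letters. RefSeq promoter sequence on GRCm38.p6 was at hand for *Krt7*, *Krt8*, *Krt18*, *Krt20* and *Krt23*. The 250 bases before the start are printed for *Krt23* and for the neighbouring pair *Krt18* and *Krt8*, with capitals for the core letters bound by SOX proteins, ACAAAG or ACAATG on either strand. The regions are chr11:99493121-99493370 (minus strand), chr15:102027966-102028215 (plus strand) and chr15:102004343-102004592 (minus strand).
Krt23: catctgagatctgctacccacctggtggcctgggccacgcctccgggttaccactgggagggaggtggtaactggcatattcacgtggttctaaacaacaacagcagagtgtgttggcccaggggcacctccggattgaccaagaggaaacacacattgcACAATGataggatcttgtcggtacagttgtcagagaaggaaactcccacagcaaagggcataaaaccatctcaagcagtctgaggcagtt
Krt18: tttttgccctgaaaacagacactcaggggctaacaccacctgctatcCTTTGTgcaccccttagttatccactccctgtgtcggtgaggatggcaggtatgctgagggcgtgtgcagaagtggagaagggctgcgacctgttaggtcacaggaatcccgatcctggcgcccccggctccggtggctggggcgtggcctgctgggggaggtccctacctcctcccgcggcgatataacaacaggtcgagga
Krt8: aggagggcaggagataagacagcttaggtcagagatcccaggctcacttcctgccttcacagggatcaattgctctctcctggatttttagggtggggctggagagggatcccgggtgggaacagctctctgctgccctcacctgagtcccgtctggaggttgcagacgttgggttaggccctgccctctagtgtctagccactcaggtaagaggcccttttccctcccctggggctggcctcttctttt
The SOX letters stand 90 bases before the start in *Krt23*, as ACAATG, and 203 bases before it in *Krt18*, as CTTTGT on the printed strand. They were in 2 of the 5 member promoters and in 25.2% of the 32851 promoters of the table. The TATA letters TATAAA were found in *Krt20* alone, against 12.4% of all promoters, and the GC box letters GGGCGG in *Krt7* alone, at 4 places, against 32.7%. E-box letters, CAGCTG or CAGGTG, were in 4 of the 5, against 27.7%, and the AP-1 letters TGACTCA and TGAGTCA, which are each other's complement, in 0 of 5, against 4.46%. Both strands were searched for each motif. These matches describe the letters in these windows, not binding.

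Members and their neighbours on the chromosome had unlike log2 ratios in several places. *Krt18* at 0.92 stands between *Krt8* at 0.25 and *Eif4b*, a translation factor gene outside the cluster, at -0.03. At the other end of the same cluster, *Krt7* at 0.54 lies beside *Krt80* at -0.01. *Krt19* stands between *Krt15*, a basal-cell keratin, at 1.70 and *Krt9*, a keratin of palm and sole skin, at 0.83. *Krt222*, at -0.52 by its repeat probe, stands between *Smarce1*, a chromatin remodelling gene, at -0.30 and *Krt24* at 1.16. *Krt23* has *Krt20* and *Krt39* as neighbours, both without a value.

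**Figure D5:**
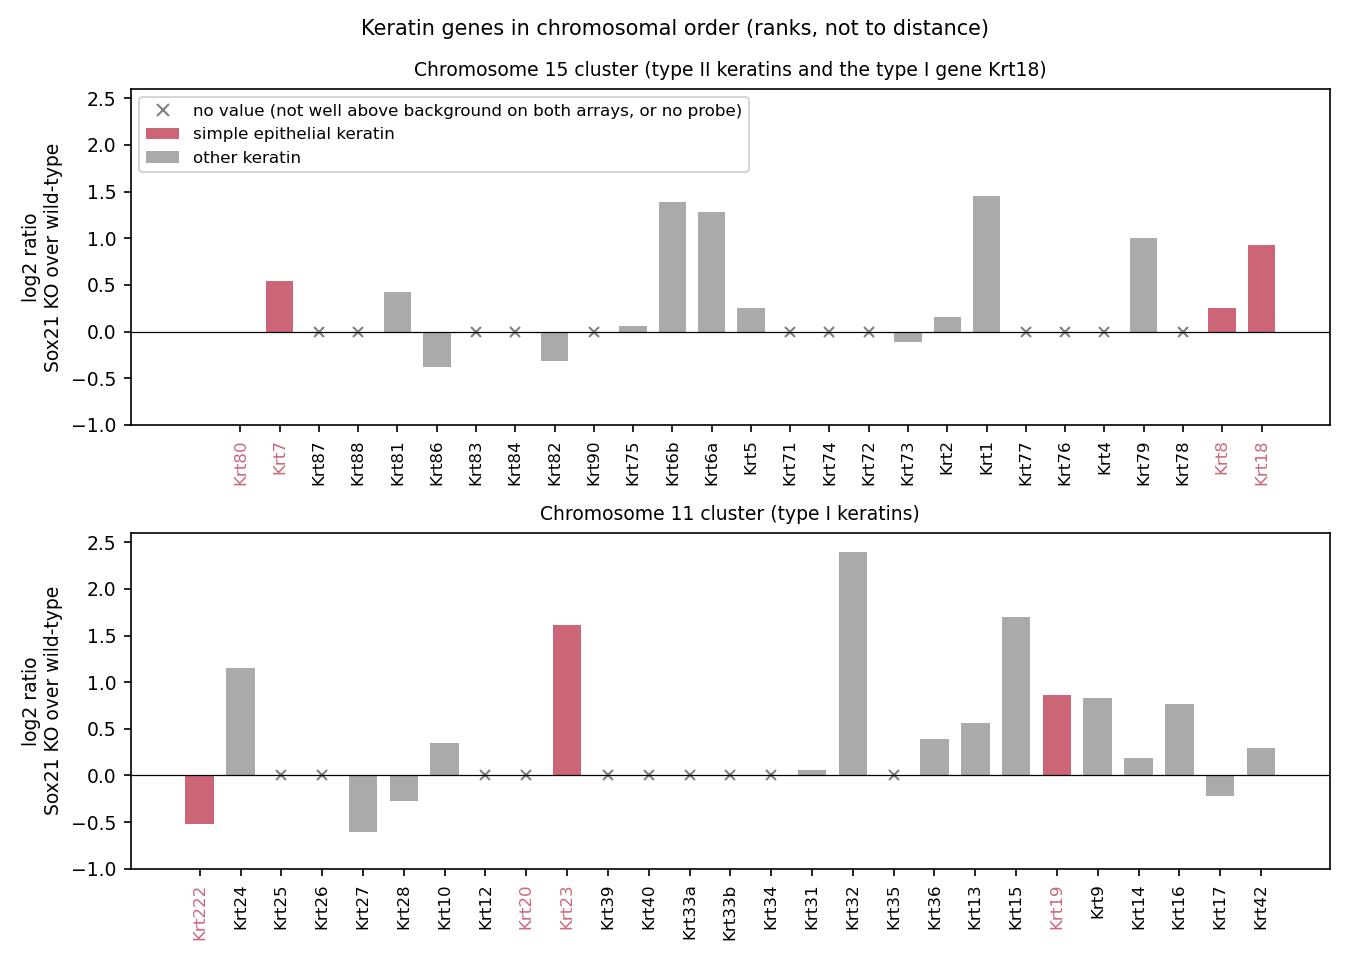
Log2 ratio of *Sox21* KO over wild-type for keratin genes in their order along the clusters of chromosomes 15 and 11 (equal spacing, not distance), with members in red, other keratins in grey and crosses for genes without a value. Members stand beside both high and low neighbours, and the *Krt222* bar is the probe with the dinucleotide repeat.

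Other keratins were also higher more often than lower. Of 44 keratin genes outside the members, 25 were measured, of which 19 were higher and 6 lower in *Sox21* KO, with a median log2 ratio of 0.34. The type I list had 14 measured genes of 23, with 11 higher, 3 lower and a median of 0.37, and the type II list had 11 measured of 21, with 8 higher, 3 lower and a median of 0.25. Over the other settings the type I median ran from 0.18, with no filter, to 0.53, with the mean over probes or the dimmest probe, and the type II median from 0.23 to 0.42. At least 2-fold higher were *Krt32*, a hair keratin, at 2.40, *Krt15* at 1.70, *Krt1*, a suprabasal skin keratin, at 1.45, *Krt6b* at 1.39, *Krt6a*, like it a keratin of stressed epithelium, at 1.28, and *Krt24* at 1.16. The *Krt32* ratio rests on a dim wild-type spot, with a normalized signal of 0.113 that stood at 0.597 in *Sox21* KO. None of the 25 was at least 2-fold lower. Outside the 25, and named after their values were seen, *Krt71* was well above background in wild-type alone, with a *Sox21* KO signal at least 2.34-fold lower, and *Krt4* and *Krt78* in *Sox21* KO alone, by at least 7.81-fold and 2.07-fold. Of the brightest of these spots, *Krt5*, of stratified epithelium, had log2 ratios of 0.25 and 0.59 at its probes, its partner *Krt14* had 0.18, and *Krt17*, a keratin of skin appendages, had -0.22. *Krt13*, of oral mucosa, followed *Krt15* in signal among type I genes, with 0.56 and 1.94 at its probes, and the probes of *Krt10*, a suprabasal keratin named after its values were seen, also disagreed, with 0.34 at the brighter and 1.84 at the other. *Krt81*, with 0.42, followed *Krt6b* and *Krt6a* among type II genes. The members' median was 0.54, or 0.70 without *Krt222*, and it was 0.32 with normexp, 0.35 on raw signals and 0.40 with no filter. It stands beside these values as a description, and whether the groups differ was not tested.

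Genes that attach keratin filaments to junctions were measured in full, 12 of 12. Of these, 8 were higher and 4 lower, with a median log2 ratio of 0.31. *Eppk1*, the epiplakin that binds keratin networks, was at least 2-fold higher, from 4.29 to 10.5, a log2 ratio of 1.29. *Dsp*, the desmoplakin of desmosomes, had 0.69, *Plec*, the plectin linker, had 0.35, *Pkp1*, a desmosomal plakophilin, had 0.23, and *Evpl*, the envoplakin of the cell envelope, had -0.19.

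Of 13 genes of the surface and junctions of simple epithelia, 11 were measured, 4 higher and 7 lower in *Sox21* KO, with a median log2 ratio of -0.12 and 0 past 2-fold. *Lsr*, of tricellular junctions, had -0.12, *Cdh1*, the E-cadherin gene, had -0.09, *Spint2*, a protease inhibitor, had -0.31, and *St14*, the matriptase gene, had -0.58. Transcription and splicing regulators of epithelia were measured in 12 of 15 genes, with 9 higher, 3 lower, a median of 0.18 and 0 past 2-fold. This median ran from 0.14 to 0.47 over the other settings. *Ehf*, an epithelial ETS factor named after its values were seen, was well above background in *Sox21* KO alone, where it was at least 3.03-fold higher. *Trp63*, the p63 regulator of stratified epithelium, had 0.22 at its brightest probe and -0.68 at its lowest, *Klf4* had -0.03 and *Ovol2* had 0.10.

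Other intermediate filament genes had a median log2 ratio of 0.01 over 9 measured of 14, with 5 higher and 4 lower. *Vim*, the vimentin of mesenchyme, had 0.29, *Lmna* and *Lmnb1*, of the nuclear lamina, had 0.15 and -0.03, and *Nes*, the nestin gene, had 0.06. *Nefl*, a neurofilament gene, was at least 2-fold lower, from 0.249 to 0.108, a log2 ratio of -1.21.

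Markers of the cell types that the incisor sample could hold were read beside the members. The 7 ameloblast markers were all measured, 2 higher and 5 lower, with a median log2 ratio of -0.62 and a summed normalized signal of 3162 in wild-type and 2866 in *Sox21* KO. Among them, *Amtn* had -1.89 and *Klk4* had -1.05, both genes of the maturation stage, *Odam*, a gene of the same stage, had 0.63, and the enamel matrix genes *Amelx*, *Ambn* and *Enam* had 0.08, -0.23 and -0.65. The 5 dental epithelium markers had a median of -0.15 and a summed signal of 49.7 and 47.6, and the 6 mesenchyme markers a median of 0.16, which was 0.05 with the dimmest measured probes, and a summed signal of 1536 and 1723. Of 6 oral mucosa surface markers, 5 were measured, 4 of them higher, with a median of 0.56, from 0.54 to 0.82 over the other settings, and a summed signal of 140.1 and 134. The sixth, *Krt4*, named here after its values were seen, was well above background on the *Sox21* KO array alone, where it was at least 7.81-fold higher. *Krt4*, *Krt13*, *Krt6a* and *Krt17* also stand in the keratin lists above, so these markers are not a separate set of observations. The markers outside those lists, *Sfn* and *Sprr1a*, had log2 ratios of 0.25 and 0.82. Among the members, *Krt23*, *Krt18*, *Krt19*, *Krt7* and *Krt8* were higher, as were 4 of the 5 measured mucosal markers, the exception being *Krt17*, their brightest, and the part of such tissue in the members' values was not tested.

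Merkel cells and salivary glands are known places of simple epithelial keratins. Of 6 Merkel cell markers, *Atoh1*, *Insm1* and *Pou4f3* gave spots below the well-above-background limit in both genotypes, and so did the member *Krt20*. *Sox2* was well above background on the *Sox21* KO array alone, at least 2.43-fold higher. The study uses *Sox2* as a marker of dental epithelial stem cells, so its signal here is not particular to Merkel cells. *Isl1* and *Piezo2* had log2 ratios of -0.20 and -0.02, with a summed signal of 3.14 in wild-type and 2.87 in *Sox21* KO. Of 11 salivary gland markers, 10 had a probe and 7 were not well above background on either array, among them *Aqp5*, *Smgc*, *Dcpp1* and *Car6*. *Elf5* was above it on the *Sox21* KO array alone, *Kcnn4* had a log2 ratio of 0.30, and *Bhlha15*, the acinar transcription factor, was at least 2-fold lower at -1.32, with a summed signal of 1.0 and 0.918 for these last 2. For all measured genes the scaling left a median log2 ratio of 0.01. *Sox21* itself had log2 ratios of -1.09 and -1.51 at its 2 probes and remained well above background on both arrays; whether these probes lie in the deleted part is not given, so that they do not settle the genotype.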

How the data were processed

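RNA of incisor tooth germ was labelled with 1 dye and hybridised to Agilent mouse arrays, 1 array per genotype on 1 slide. The authors deposited scanner files of Agilent Feature Extraction 10.7.3.1, which hold spot intensity after background subtraction, its error and spot flags, and a table whose values are the ratio of each processed signal to 1 number per array (267.8 and 275.6), close to the 75th percentile of the array (267.7 and 275.6). The methods of the study name a percentile shift and a filter on low signals without their settings. Here, log2(processed signal / 75th percentile of all spots) was taken, 267 spots with outlier flags on either array were left out, and spots of a probe were averaged. A probe was measured where it was well above background on both arrays (25945 of 55679 probes, 49.7% and 50.4% of non-control spots per array). A gene took its brightest measured probe. Probes were named through RefSeq (26298 by accession, 2044 by symbol and 355 by older symbol) and otherwise by the file. The scanner error of a log2 ratio combines the relative errors of both spots. The number of arrays limits the precision. A gene above background on 1 array has only a bound, taken against the lowest well-above-background signal of the other array or the probe's own signal there, whichever was higher. No test between the genotypes was made, with 1 array per group. The calls were tested on simulated data, which cannot show how far animals differ. The members, lists and motifs were chosen with earlier results of these data known. Named in the text were every member, *Sox21*, *Krt5*, *Krt14*, all listed genes at least 2-fold apart, up to 4 genes per list with the highest signal, the neighbours of members, and in the marker lists those that define the type; a value that this rule would name is not reported here. Order along the chromosomes is from RefSeq on GRCm38.p6. Python 3.11.15 with pandas 2.3.3 and R 4.3.3 with limma 3.58.1 were used. The skin arrays of the study were not analysed here.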

Additional observations from a re-analysis of the deposited data

How the results depend on the processing

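Alternatives were another scaling (the 75th percentile or the median of non-control spots, quantile normalization, the deposited ratios), normexp (offset 50) or raw signals, no filter or the software's pixel test as filter, the mean over probes, the dimmest measured probe, and a 1.5-fold limit. Leaving out probes with a dinucleotide repeat was chosen after seeing the data. The median log2 ratio of measured members, 0.54, was 0.32 with normexp, 0.35 on raw signals, 0.40 with no filter and 0.70 without repeat probes. Members past the limit numbered 3 in place of 1 at 1.5-fold and were 1 under all other alternatives, with 0 lower throughout, and 6 to 8 members were measured. For the 7 measured genes, 69 of 76 values moved by less than the spot SD of 0.085 and 7 by more, all of them for *Krt7*, *Krt18*, *Krt19* and *Krt23* under normexp or on raw signals. Of 143 medians of the lists and of all genes under these settings, 19 moved by more than that SD. Among these 19, the Merkel cell median turned from -0.11 to 0.45 with the pixel test filter and to 0.01 with the dimmest probe. The salivary gland median turned from -0.51 to 0.31 with the pixel test filter. Under the main setting, each of these lists had 2 measured genes. With the dimmest probe, *Piezo2* of the Merkel cell list had 0.23 in place of -0.02. The cause of the other moves was not tested. Scaling by the median moved all measured genes to a median of 0.09. No paired analysis was possible because each group has 1 array. The study cannot separate genotype from animal, dissection or array, and dim spots such as those of *Krt7* and *Krt19* have larger relative errors.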
